A study of Mus musculus with 4 samples.

Results

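The genes examined here are the small nucleolar RNA (snoRNA) genes of the mouse gene annotation deposited with the series, and the introns of the genes that hold them. Every gene given the biotype snoRNA was taken, which gave 1537 of the 46078 genes in the annotation (3.34%). The 1537 genes were split by name into 82 whose name begins with Snord, 39 whose name begins with Snora and 1416 others, of which 1343 carry a provisional name of the form Gm followed by a number. Each was placed against the exons and introns of genes on the same strand, and only the annotation was used: no value from any library enters these results.

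The annotation belongs to an RNA-seq study of bone marrow derived macrophages, cells grown from mouse marrow with the growth factor M-CSF, from C57/BL6 mice. All 4 groups carry Piezo1 fl/fl, a floxed gene for a mechanically gated ion channel. The groups are Piezo1 fl/fl cells without Cre under static pressure, the same genotype under cyclic hydrostatic pressure, and Piezo1 fl/fl cells with LysM Cre, a Cre driven by a myeloid promoter, under each of the same treatments, all for 6 h. There was 1 library of polyA RNA in each group, from littermate and cohoused mice. Mature snoRNAs have no polyA tail, so libraries of this kind read mainly the spliced transcripts of their host genes. The cell type was not checked against marker genes here, since no expression value was used.

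SnoRNAs are short RNAs of the nucleolus that guide chemical changes in ribosomal RNA, each working inside a small protein complex. Box C/D snoRNAs, named Snord, direct 2′-O-methylation and carry box C near their 5′ end and box D near their 3′ end. Box H/ACA snoRNAs, named Snora, direct the change of uridine to pseudouridine and fold into a pair of hairpins with box H between them and the letters ACA close to the 3′ end. In vertebrates most snoRNAs are cut out of introns of host genes after splicing, and many hosts are genes of the translation machinery or noncoding genes whose spliced RNA has no long reading frame. In macrophages and other cells, the box C/D snoRNAs in the introns of Rpl13a, a gene for a protein of the large ribosomal subunit, are known for a part in the response to lipid and oxidative stress.

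Gas5, a noncoding gene named for its rise in growth-arrested cells, shows the usual arrangement most fully and is printed for that reason. Its snoRNA genes lie on the plus strand of chromosome 1 (GRCm38), from chr1:161035394-161035473 for the first to chr1:161038308-161038383 for the last. The sequences run 5′ to 3′ as in the GENCODE M21 transcripts of the same build. Capitals mark box C, searched as TGATGA in the first 20 bases, and box D, searched as CTGA in the last 20 bases.
Gm26224: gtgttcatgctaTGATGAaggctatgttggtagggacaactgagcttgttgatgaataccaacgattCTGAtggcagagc
Gm22489: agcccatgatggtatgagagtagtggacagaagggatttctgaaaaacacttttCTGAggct
Gm22357: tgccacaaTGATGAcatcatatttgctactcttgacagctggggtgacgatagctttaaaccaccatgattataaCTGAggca
Gm23212: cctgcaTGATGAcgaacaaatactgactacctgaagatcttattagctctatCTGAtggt
Snord78: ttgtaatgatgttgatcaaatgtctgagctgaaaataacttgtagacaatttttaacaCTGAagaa
Mir5117: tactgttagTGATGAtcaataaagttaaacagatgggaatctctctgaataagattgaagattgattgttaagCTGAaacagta
Snord80: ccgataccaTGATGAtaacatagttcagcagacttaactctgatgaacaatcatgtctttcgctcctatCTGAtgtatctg
Snord47: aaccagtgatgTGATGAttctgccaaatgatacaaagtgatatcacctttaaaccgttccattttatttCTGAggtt
Gm25789: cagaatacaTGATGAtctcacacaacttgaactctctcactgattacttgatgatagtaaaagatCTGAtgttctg

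Box D was present in each of these 9 sequences, and box C in 7 of them. Gm22489 and Snord78 have only the first 5 bases of box C, TGATG, in the same window. The 10th entry in Gas5, SNORD77, is the locus of Snord80 under a second name: it starts 3 bases later and ends 1 base earlier. Gas5 has 11 introns in the transcript drawn, and 9 of them hold 1 snoRNA locus each. Introns 4 and 7 hold none. The distance from the 3′ end of the snoRNA gene to the first base of the next exon was 65 bases for Mir5117, 66 for Snord47, 68 for Gm22357, 71 for Gm22489, 73 for Gm25789, 74 for Snord78 and 78 for Gm23212. It was 278 bases for Gm26224 and 313 for Snord80. So 7 of the 9 loci ended between 65 and 78 bases before the 3′ splice site, and the other 2 lay farther upstream. The introns are short, and 7 of the 9 loci began nearer to the 5′ splice site than they ended to the 3′ one. The 5′ distances ran from 35 bases for Gm25789 and 40 for Mir5117 to 131 for Snord78 and 199 for Gm26224.

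**Figure D1:**
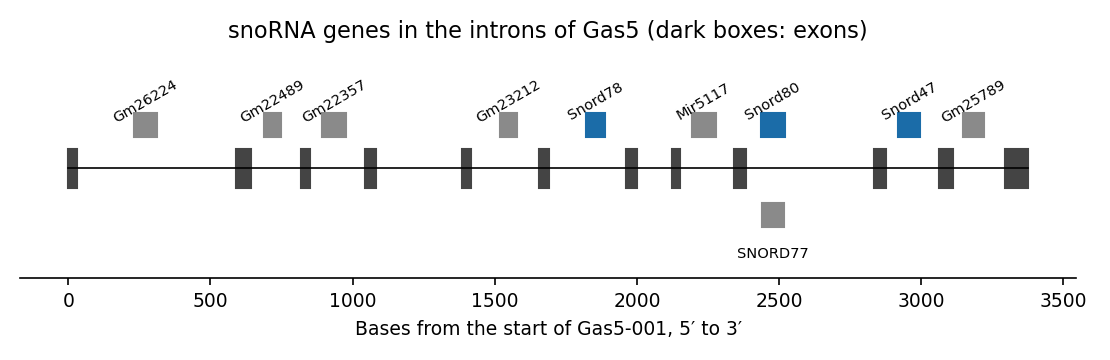
The transcript Gas5-001 with its 12 exons (dark boxes) against bases from its start, 5′ to 3′; blue boxes are Snord genes, grey boxes other snoRNA genes, and SNORD77, drawn below the line, overlaps Snord80. Of the 11 introns, 9 hold a snoRNA gene, and 7 of these 9 loci lie nearer to the exon on the left than to the one on the right.

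Rpl13a is shown as a protein-coding host. It has 4 box C/D genes in 4 introns on the minus strand of chromosome 7, between chr7:45126346-45126435 (Snord35a) and chr7:45127382-45127464 (Snord32a). Capitals have the same meaning.
Snord32a: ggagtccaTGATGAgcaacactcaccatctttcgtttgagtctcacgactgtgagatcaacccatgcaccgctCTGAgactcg
Snord33: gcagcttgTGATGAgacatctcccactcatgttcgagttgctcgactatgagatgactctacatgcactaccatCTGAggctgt
Snord34: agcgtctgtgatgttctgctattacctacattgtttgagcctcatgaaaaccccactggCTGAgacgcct
Snord35a: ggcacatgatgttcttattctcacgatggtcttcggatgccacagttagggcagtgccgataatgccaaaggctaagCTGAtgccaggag

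Snord33 and Snord32a hold both boxes in full. Snord34 and Snord35a have box D and only TGATG of box C. Their distances to the 3′ splice site were 63 bases for Snord34, 69 for Snord33, 92 for Snord35a and 107 for Snord32a. All 4 began nearer to the 5′ splice site, at 38 bases for Snord34, 10 for Snord33, 42 for Snord35a and 31 for Snord32a. The intron used for Snord33 came from a transcript with 2 introns, and the others from transcripts with 7.

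For box H/ACA, Kansl2 is shown, whose product belongs to a histone acetyltransferase complex. Its 2 members lie on the minus strand of chromosome 15 at chr15:98519716-98519853 (Snora34) and chr15:98526346-98526482 (Snora2b). Capitals mark the match to box H, ANANNA, nearest the middle of the gene and the ACA in the last 6 bases.
Snora34: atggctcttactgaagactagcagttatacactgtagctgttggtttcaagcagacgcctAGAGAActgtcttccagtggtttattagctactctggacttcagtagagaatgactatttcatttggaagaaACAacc
Snora2b: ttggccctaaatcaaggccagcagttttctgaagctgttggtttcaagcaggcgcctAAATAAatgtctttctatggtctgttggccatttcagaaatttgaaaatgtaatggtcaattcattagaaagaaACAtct

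Snora34 ended 168 bases before the next exon and Snora2b 1633 bases before it.

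The name classes differed in length and in boxes over the 1507 members (98.0%) whose sequence could be matched. The median length was 79.5 bases for Snord (range 64 to 238), 132 for Snora (121 to 205) and 128 for the others (35 to 325). Box D was in 80 of 82 Snord genes (97.6%), 4 of 39 Snora genes (10.3%) and 449 of 1386 others (32.4%). Box C in full was in 54 Snord genes (65.9%), in no Snora gene and in 273 others (19.7%), and a further 17 Snord genes (20.7%) had only its first 5 bases, TGATG. The terminal ACA was in 36 Snora genes (92.3%), 5 Snord genes (6.1%) and 649 others (46.8%). Box H, whose letters are loose, matched somewhere in 1379 of all 1507 members (91.5%), 70 Snord genes among them, so on its own it did not separate the classes.

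Among the others, 250 had boxes C and D without the H and ACA pair, 601 had H and ACA without the C and D pair, 7 had both pairs and 528 neither. A match to these letters is a description of the sequence and not evidence of a working box. The others also include 25 names in capitals SNORD, 15 in capitals SNORA, 10 U3 genes named U3 or ACEA_U3 and 6 named Rnu, besides 5 named as microRNAs, such as Mir5117 in Gas5.

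The annotation lists some snoRNA genes more than once. At 25 loci 2 members overlapped on the same strand, so the 1537 genes lie at 1512 loci. Snora16a and snopsi28S-3327 in Snhg12 differ by 1 base at the start, and Snora43 and the snoRNA entry Snhg7 on chromosome 2 by 1 base at the start and 11 at the end. A further 29 members lie on patch sequences, alternative versions of a chromosome stretch, and all 23 genes named SNORD113 are on the patch that repeats the Rian region of chromosome 12. Every member has a single exon.

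Most named snoRNA genes lay in introns. A gene was called intronic where the whole of it fell between 2 consecutive exons of a transcript of a same-strand gene outside the small RNA biotypes (snoRNA, snRNA, miRNA and the like). This held for 78 of 82 Snord genes (95.1%) and 36 of 39 Snora genes (92.3%), against 394 of 1416 others (27.8%) and 508 of all 1537 (33.1%). The share over all was 22.1% where only protein-coding transcripts made introns.

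The 4 Snord genes with no same-strand host were Snord118, Snord104, Snord22 and Snord13. Snord118, the U8 snoRNA needed for maturation of the large subunit RNAs, and Snord13 are known to be transcribed from promoters of their own. Of the Snora genes, Snora43 and Snora17 had no host in the annotation, and Snora57 lay opposite a gene on the other strand only. Among the others, 817 (57.7%) lay in no intron or exon of a same-strand gene and had no gene across them on the opposite strand. A further 199 (14.1%) lay across from a gene on the opposite strand and were likewise in no same-strand intron or exon. A gene that spans a member only between its transcripts was not counted as a host. The 817 thus include 122 members of a chromosome 7 family, described below, that lie within the span of Snhg14. Intronic shares among the others were 47.6% for members with boxes C and D (119 of 250), 24.8% with H and ACA (149 of 601) and 20.1% with neither (106 of 528). All 3 lay below the shares of the named classes.

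An intron of one transcript can be an exon of another. Of the 508 intronic members, 120 also touched an exon of a same-strand transcript, among them 33 Snord genes (40.2% of the class) and 15 Snora genes (38.5%), against 72 others (5.08%). For 74 of the 120 (61.7%) such an exon came from a transcript labelled as a retained intron, for 65 (54.2%) from nothing else, and for 9 (7.5%) from a protein-coding transcript. The 3 Hspa8 members and both Snhg5 members were of this kind. Only 6 members lay in or over exons and in no intron: Gm22394 and Gm22871 overlap exons of Trpm2, Gm24895 lies in an exon of Rian, Gm23347 in one of Gm37899, and 2 SNORD113 entries on the patch. In all, 126 members (8.2%) touched an exon, and 3.97% did with retained-intron transcripts left out.

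**Figure D2:**
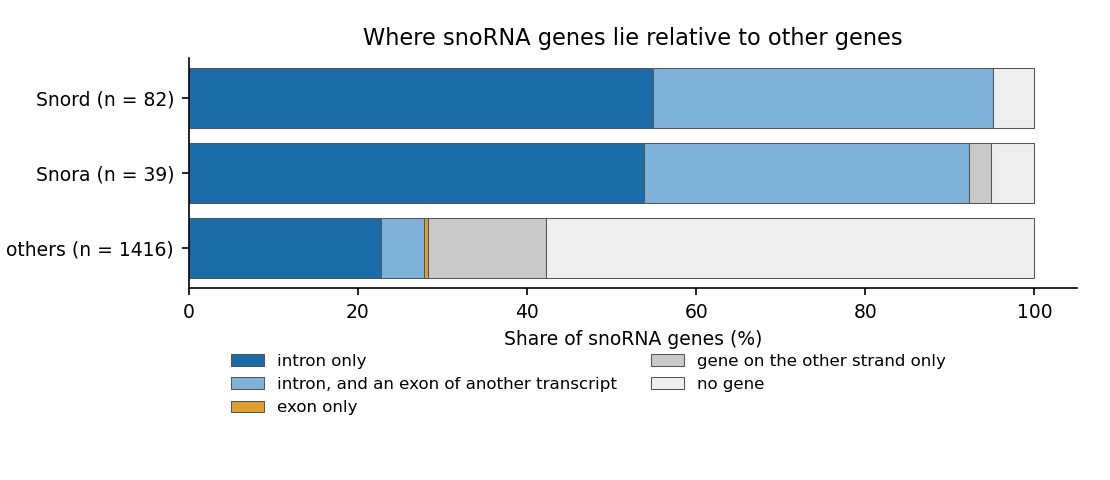
Share of snoRNA genes (percent, horizontal axis) by placement, with 1 bar each for the 82 Snord, 39 Snora and 1416 other genes. Colours mark intron only, intron plus an exon of another transcript, exon only, a gene on the other strand only, and no gene. The last means no same-strand intron or exon and no gene across it on the other strand. Intronic placements fill 95.1% and 92.3% of the upper bars and 27.8% of the lowest.

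The 508 intronic members sat in 438 introns of 285 host genes, and 344 members (67.7%) had a host of the biotype protein_coding. That biotype is the label of the annotation and also covers Snhg11, which is counted below among the noncoding snoRNA hosts by its name. Conversely, the chaperone gene Cct6a is labelled processed_transcript. Counts of coding and noncoding hosts here follow that label and not the product of the gene. A further 138 (27.2%) lay in hosts of the biotype processed_transcript, 19 (3.74%) in lincRNA genes and 7 (1.38%) in antisense genes. The protein-coding share was 76.9% for Snord (60 of 78), 80.6% for Snora (29 of 36) and 64.7% for the others (255 of 394). Of all 22159 protein-coding genes, 244 held a snoRNA gene in an intron (1.1%), and the shares of function groups below stand beside that figure. The groups are lists made from gene-name patterns, so each share covers the listed genes and not every gene of that function.

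Ribosomal protein genes formed the group with the most hosts. Of 101 ribosomal protein genes, 30 were hosts (29.7%), with 58 members, or 11.4% of the intronic ones. They held 21 of 78 intronic Snord genes (26.9%) and 11 of 36 Snora genes (30.6%). Rpl4 held 5 members in 5 introns and Rpl13a 4 in 4, and Rpl23a had Snord42a, Snord4a and Snord42b in 3 introns. Rps12 mixed the classes, with Snora33, Snord100 and Gm23130.

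The translation factor list gave 10 hosts of 72 genes (13.9%) with 19 members. By its name patterns it takes in Eif2ak3, a kinase of an initiation factor, and Tpt1. These are not translation factors themselves and held 1 member each. Eif4a2, an RNA helicase of translation initiation, held 5 in 5 introns: Snord2, Snora81, Gm24201, Gm26447 and Gm24616. Its paralog Eif4a1 held 3, and Eef1b2, a subunit of the exchange factor of elongation, held 3 entries at 2 loci. The nucleolar and snoRNP proteins gave 7 hosts of 62 genes (11.3%) with 20 members. Nop56 and Nop58, core proteins of the box C/D complex, held 5 and 4 snoRNA genes, among them Snord110 and Snord57 in Nop56 and Snord70 and Snord11 in Nop58. Ncl, which encodes nucleolin, held Snora75, Snord82 and Gm24148. Dkc1, which encodes the pseudouridine synthase of the box H/ACA complex, held Gm25520.

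Other protein groups held fewer. Splicing and RNA-binding protein genes gave 6 hosts of 146 (4.11%), such as Ddx39b and Sf3b3 with 2 members each and Cwf19l1 with 1. Chaperone genes gave 4 of 95 (4.21%): Hspa8, the constitutive cytosolic Hsp70, held Snord14c, Snord14d and Snord14e, and Cct6a, Hspa9 and Tcp1 held 2 each. The mitochondrial energy list gave 7 of 259 (2.7%), such as Atp5b with 2 members and Atp5c1 and Cox7c with 1 each. It takes in Timm23 and Tomm20, genes of mitochondrial protein import, with 1 member each. The host Cs, the gene of citrate synthase, is in no list. The list of chromatin and cell cycle genes gave 2 hosts of 160 (1.25%). Rcc1, the exchange factor of the GTPase Ran, held Snora73a and Snora73b, and Chd8, a chromatin remodeller, held Snord8. That list leaves out other chromatin genes that are hosts, such as Kansl2, shown above, and Srcap. Its share therefore does not describe the function as a whole.

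Of the 41 hosts with a biotype other than protein_coding, Cct6a among them, 31 (75.6%) held 1 member. Of the 14 genes named Snhg or Gas5, 11 were hosts (78.6%), a share that their naming as small nucleolar RNA host genes sets in part, and they held 109 members (21.5% of the intronic ones). Snhg14 alone held 82 of these, and Gas5 10. Snhg12 had 5 entries at 4 loci, with Snora16a, Snora44, Snora61 and Snord99, and Snhg5 held Snord50a and Snord50b. Hosts outside every list numbered 206, with 250 members (49.2%), and they held 27 Snord genes (34.6%) and 10 Snora genes (27.8%). Several of these work with ribosomes or RNA all the same: Gnb2l1 (now Rack1), a scaffold on the small ribosomal subunit, held Snord95 and Snord96a, and Tsr1, a ribosome assembly factor, held Snord91a. Others do not, such as Rabggtb, a subunit of the enzyme that adds lipid to Rab proteins, with Snord45b and Snord45c.

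Of the 285 hosts, 217 (76.1%) held 1 member, 34 (11.9%) held 2 and 21 (7.37%) held 3. The hosts with the most were Snhg14 with 82, Rian with 12 on chromosome 12 and 12 again on the patch, Gas5 with 10 and Tex14 with 8. Eif4a2, Nop56, Rpl4 and Snhg12 followed with 5 each, and 2410002F23Rik, Nop58 and Rpl13a were among those with 4.

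**Figure D3:**
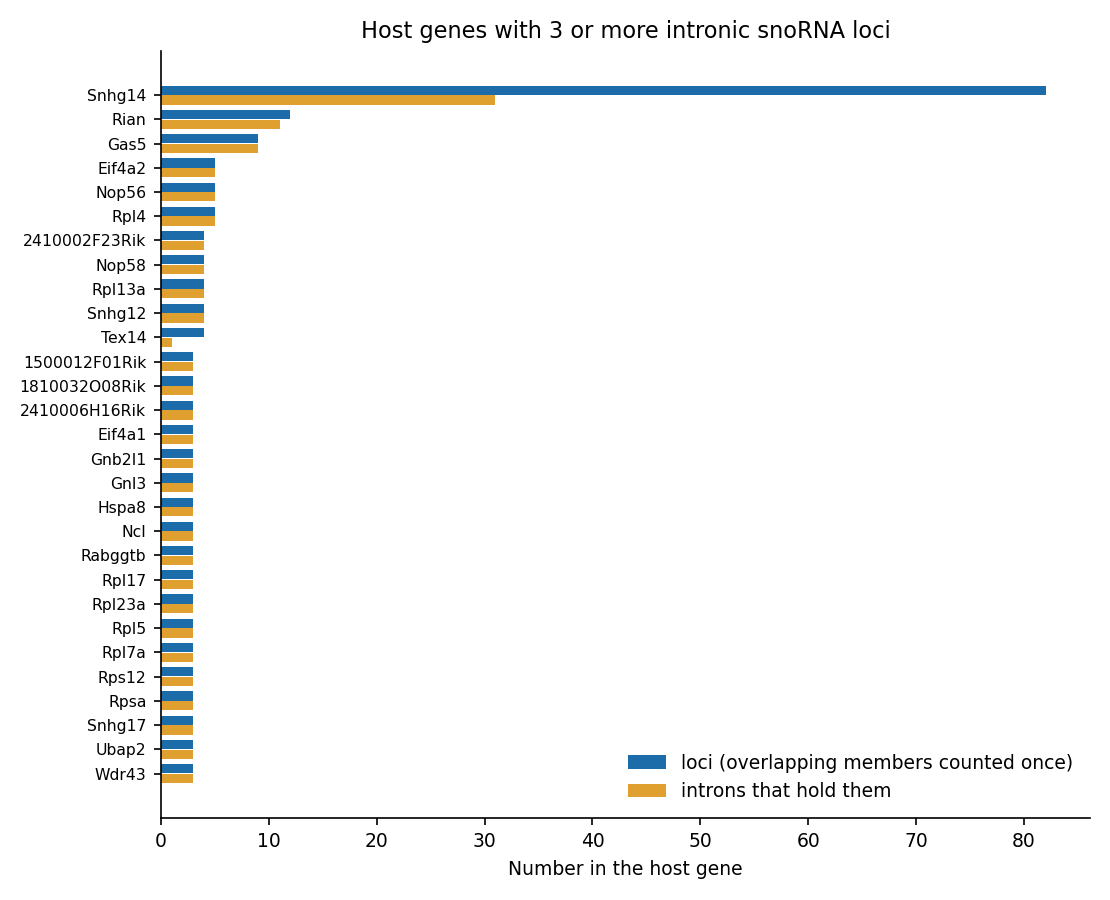
Number of snoRNA loci (blue, overlapping members counted once) and of introns that hold them (orange) in host genes with 3 or more loci. The bars are of equal length in nearly every host; Snhg14 has 82 loci in 31 introns, and Tex14 has 4 loci in 1 intron.

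A single snoRNA per intron was the usual state. Each member was assigned to the shortest intron that holds it. Of the 438 introns so assigned, 422 (96.3%) had 1 member and 428 (97.7%) had 1 locus. A longer intron around an assigned one can span further members that are not counted in it. With the longest holding intron instead, 94.1% of 409 introns had 1 member. Of the 10 introns with 2 or more loci, 5 lay in imprinted clusters. The other 5 were in Tex14, Cep295, Snhg11, Zbed3 and Zfp808. In Cep295 an intron of 463 bases held Scarna9, which guides changes in spliceosomal RNA in the Cajal body, together with Gm24339. In Zbed3 an intron of 10711 bases held Snora47 and Gm22661, which ended 5318 and 3306 bases before the next exon.

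Hosts with several loci spread them over several introns. Outside the listed imprinted clusters 63 hosts had 2 or more loci. With each member assigned to its shortest holding intron, 58 of them had 1 locus in each intron used. Among the 58 is Gm38393, where the intron assigned to Snord107 also spans Snord64. Gm38393 overlaps Snhg14 in position but is not in the list of imprinted clusters. In 17 of the 63, 2 or more of the loci were alike in sequence, with at least 80% identity over at least 80% of both genes. All 3 loci of Hspa8, Snord14c, Snord14d and Snord14e, were one such family in 3 introns, and so were all 4 loci of 2410002F23Rik, Snord88a and Snord88c among them. Rcc1 had Snora73a and Snora73b in neighbouring introns, and Snhg5 had Snord50a and Snord50b, each in an intron of 201 bases, 49 bases from its 5′ end and 80 from its 3′ end.

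Where several transcripts gave an intron around the same gene, the shortest was used. The median length was then 447 bases for the 113 introns with a Snord or Snora gene and 656 for the 858 other introns of the same hosts. With the longest holding intron instead it was 586 for 106 introns, beside 618.5 for the 882 others, so the lower value in the first pair rests on that choice. All 234218 introns of protein-coding genes had a median of 1431 bases. Introns with any member had a median of 1416. Intron numbers were taken from the transcript that gave the shortest holding intron, which may be partial. By that count, first introns held 6 of the 60 Snord genes with protein-coding hosts (10.0%), 4 of 29 Snora genes (13.8%) and 47 of 255 others (18.4%). Snord33 counts as intron 1 of 2 in Rpl13a, although it lies between Snord32a in intron 2 of 7 and Snord34 in intron 5 of 7.

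Intronic Snord genes ended a median of 87 bases before the next exon, with quartiles of 71.25 and 197.75 bases and a range from 59 to 172998. Within 100 bases of the 3′ splice site lay 49 of 78 (62.8%), and none lay within 50. On the 5′ side the median distance was 118.5 bases, 36 genes (46.2%) began within 100 bases of the 5′ splice site, and 15 began within 50. Over the class 34 genes (43.6%) were nearer to the 3′ than to the 5′ splice site. The 3′ distances thus had a floor at 59 bases that the 5′ distances did not share, since 15 of those were under 50 bases. The smallest, 10 bases, was for Snord33 in a transcript of Rpl13a with 2 introns. In introns of up to 500 bases, 38 of 44 Snord genes (86.4%) lay within 100 bases of the 3′ splice site and 31 (70.5%) within 100 bases of the 5′ one, and introns of that length bound both distances. In introns over 500 bases, 11 of 34 (32.4%) were within 100 bases of the 3′ end and 5 (14.7%) of the 5′ end, with medians of 256.5 and 574.5 bases.

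Snord68 in Rpl13 and Snord69 in Gnl3, both at 59 bases, and Snord16a in Rpl4, at 62, were nearest to the 3′ splice site. Rpl13 and Rpl4 encode proteins of the large ribosomal subunit, and Gnl3 encodes nucleostemin, a nucleolar GTPase. The farthest were Snord107 in Gm38393, at 6700 bases, and Snord116l2 and Snord116l1 in Snhg14, at 155311 and 172998 bases. The median was 92 bases for the 60 Snord genes in hosts of the biotype protein_coding and 82.5 for the 18 in hosts of other biotypes.

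Intronic Snora genes ended a median of 165 bases before the next exon, with quartiles of 76 and 332 and a range from 49 to 77876. Of 36, 13 (36.1%) lay within 100 bases of the 3′ splice site and 15 (41.7%) within 100 bases of the 5′ one. Only 1 gene lay within 50 bases of the 3′ end, against 9 within 50 bases of the 5′ end. Snora70 in Rpl10, at 51 bases, and Snora64 in Rps2, at 63, were among the 3 nearest, both in ribosomal protein genes. Snora47 in Zbed3, Snora15 in Cct6a and Snora35 in Htr2c, the gene of a serotonin receptor, were farthest, at 5318, 50293 and 77876 bases. Snora15 was only 46 bases from the 5′ end of its intron of 50470 bases.

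The others were spread far more widely. Their median distance to the 3′ splice site was 1875 bases, and 43 of 394 (10.9%) lay within 100 bases of it, against 63 (16.0%) within 100 bases of the 5′ splice site. The 119 with boxes C and D had a median of 2044 bases, and 18 (15.1%) lay within 100. All 18 were among the 41 outside the imprinted clusters, whose median was 111 bases, a subset chosen after the values were seen. The 149 with H and ACA had a median of 1870, with 11 (7.38%) within 100. The nearest were Gm22879 in Rpl7a, which ended 1 base before the next exon in an intron of 133 bases, and Gm26003 in Snhg17 and Gm26293 in Nop58, both at 19 bases. At the other end were Gm22313 in Lrrc4c at 188664 bases, Gm25759 in Hs3st4 at 250416 and Gm25428 in Gm20388 at 823860.

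**Figure D4:**
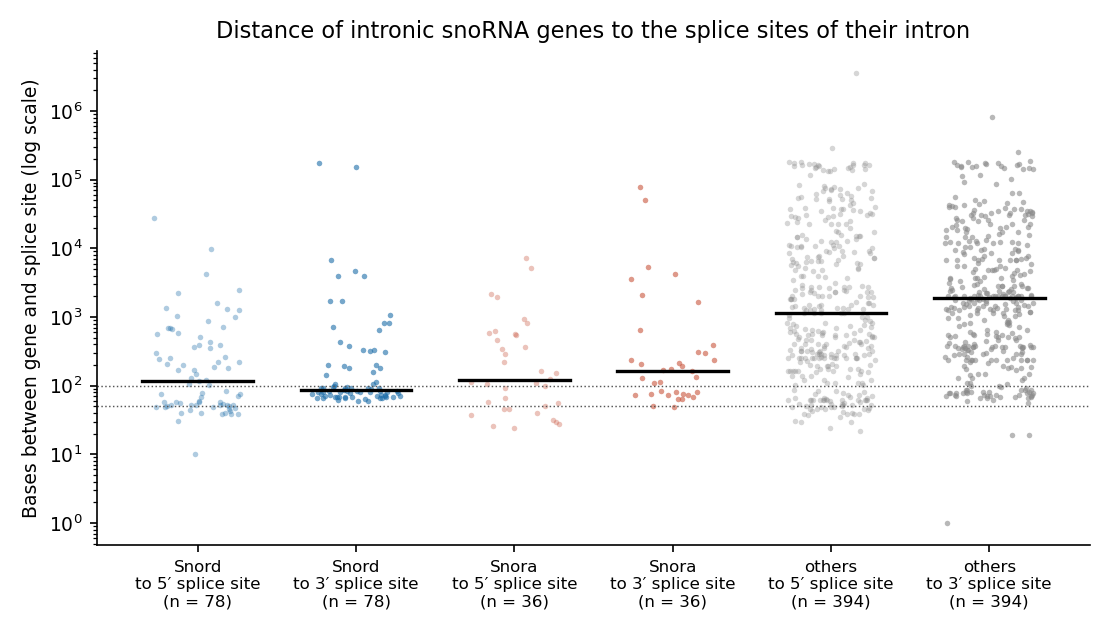
Bases (log scale) between each intronic snoRNA gene and the 5′ or 3′ splice site of its intron, 1 point per gene, for 78 Snord, 36 Snora and 394 other genes; black lines are medians and dotted lines mark 50 and 100 bases. Snord genes crowd just under 100 bases from the 3′ splice site with none under 50, whereas the others spread over several orders of magnitude.

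The distance to the 3′ splice site differed between host groups, taken as the same name-based lists. Members in ribosomal protein genes had a median of 89.5 bases, with 33 of 58 (56.9%) within 100 bases, and those in translation factor genes 98 bases, with 10 of 19 (52.6%). The medians were 143 bases in chaperone genes (9 members), 188.5 in mitochondrial energy genes (8), 240 in nucleolar and snoRNP genes (20) and 271.5 in splicing and RNA-binding protein genes (8), with 4, 4, 7 and 1 members within 100 bases. Longer medians stood in chromatin and cell cycle genes, 1719 bases over 3 members, in noncoding snoRNA hosts, 2241 over 109, and in imprinted clusters, 3381.5 over 106. Of those 109 members 17 (15.6%) were within 100 bases, and of those 106 none. Snhg14 held 82 of the 109, with a median of 17304 bases and none within 100, so all 17 lay in the other hosts of that list. The medians of those other hosts ran from 68 bases in Snhg9 to 1760 in Snhg11. Members in hosts of no list had a median of 2027.5 bases, with 28 of 250 (11.2%) within 100. The name classes are mixed in different proportions in these groups, and class and host group cannot be told apart from these medians.

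The largest single host was Snhg14, the long noncoding transcript of the imprinted region known in humans for Prader-Willi syndrome, whose snoRNAs are expressed mainly in brain. Its 82 members ran from 59386081 to 59902306 on the minus strand of chromosome 7 and belonged to 2 sequence families of 69 and 13 members, with 39 distinct sequences. None ended within 100 bases of a 3′ splice site, and the median distance was 17304 bases. By coordinates 52 of them lay in an intron of 183030 bases, chr7:59721622-59904651, of which 16 also lay in a shorter intron of another transcript and were assigned to that one. In the larger family, which has 70 members with 69 in Snhg14, the median gap between neighbours was 2433 bases, with quartiles of 2424 and 2446 and a range from 2407 to 52125. The 3 commonest sequences are shown, with the boxes in capitals.
Gm22285: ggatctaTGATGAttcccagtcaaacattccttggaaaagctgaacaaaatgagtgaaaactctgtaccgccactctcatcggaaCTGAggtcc
Gm23953: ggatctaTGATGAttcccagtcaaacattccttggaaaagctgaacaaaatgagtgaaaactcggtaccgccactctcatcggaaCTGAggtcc
Gm26032: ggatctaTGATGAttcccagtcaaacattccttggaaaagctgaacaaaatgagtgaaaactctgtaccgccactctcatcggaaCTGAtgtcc

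The first occurs 30 times in Snhg14, under 30 names that include Snord116l2, and each of the others 4 times. Counted from 1 at the 5′ end, Gm23953 differs from Gm22285 by T64G and Gm26032 by G90T, outside both boxes.

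At lower coordinates of the same region, 135 members with provisional names formed another family, between 59342226 and 59619095 and all on the minus strand. The median gap was 1792 bases (quartiles 1790 and 1793, range 1210 to 11690), there were 55 distinct sequences and 33 copies of the commonest, and 13 of the 135 lay in introns of Snhg14 as annotated, while 122 were in no intron. Box C was present in 124 and box D in 133. Chromosome 7 as a whole held 262 members (17.0%).

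Rian, a noncoding gene of the imprinted cluster on chromosome 12, had 12 intronic members between 109631074 and 109658478 in 11 introns. In contrast to Snhg14 they fell into 9 sequence families. Their distances to the 3′ splice site ran from 351 to 3045 bases, and none was within 100. Of the 13 genes listed as imprinted noncoding clusters, 3 were hosts (23.1%), namely Snhg14, Rian and its copy on the patch, with 106 members (20.9% of the intronic ones). Snhg14 counts in the list of noncoding snoRNA hosts as well.

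The U3 snoRNA, a box C/D RNA needed for early cleavage of the ribosomal RNA precursor, is transcribed from its own promoters. In the annotation its genes Rnu3b1, Rnu3b2, Rnu3b3 and Rnu3b4 lay in 1 intron of Tex14, a gene of germ cell bridges, at chr11:87433946-87474403. Each was annotated a second time as U3 or ACEA_U3, with ends that differed by 1 base. The 8 entries ended between 2820 and 30952 bases before the next exon. Rnu3a on chromosome 10, also listed under 2 names, had no host.

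The 1507 sequences fell into 569 families by the 80% rule, 478 of them with 1 member. The largest family, to which Snora17 belongs, had 499 members with 494 distinct sequences on 20 chromosomes. Of these, 463 (92.8%) were in no intron, which is 45.0% of all members without one, and 36 were intronic, none closer than 1400 bases to the 3′ splice site. The terminal ACA was in 300 of the 499 and box C in none. With the 2 largest families set aside, 459 of the remaining 903 members (50.8%) were intronic. The 5 families with 10 or more members together held 752 genes, of which 132 (17.6%) were intronic and none within 100 bases of the 3′ splice site. Of the 478 members in a family of 1 under this rule, 211 (44.1%) were intronic and 68 were within 100 bases. A family of 1 does not mean a gene without relatives, since the rule leaves apart genes with paired names such as Snord15a and Snord15b.

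**Figure D5:**
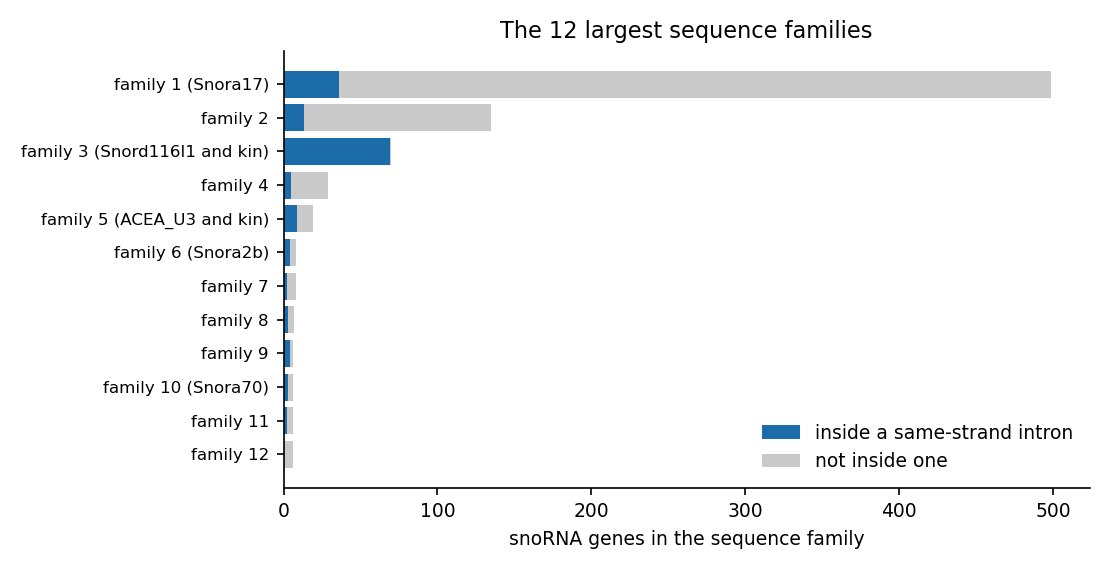
Number of snoRNA genes in each of the 12 largest sequence families, split into genes inside a same-strand intron (blue) and not (grey). Family 1 has 499 members with 36 in introns, family 2 has 135 with 13, and family 3 has 70 with 69, all in Snhg14.

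Among the other classes of small RNA gene in the annotation, the intronic share was 58.8% for small Cajal body RNAs (30 of 51) and 20.1% for snRNAs (279 of 1386), beside 33.1% for snoRNAs, and 900 of 2250 microRNA genes were intronic. Of the intronic snoRNA genes 105 (20.7%) ended within 100 bases of the 3′ splice site, against 2 small Cajal body RNA genes (6.67%) and 1 snRNA gene (0.358%). For microRNA genes the count was 228 (25.3%). At the 5′ splice site the shares were 22.4% for snoRNA genes and 10.8% for microRNA genes. The annotation is a single complete list with no replicates, so these shares are given as counts of it with no test.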

How the data were processed

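The 4 libraries were made from polyA RNA and sequenced on an Illumina HiSeq instrument, per the labels' protocols. The submitters' processing notes name CASAVA 1.8, FastQC, TopHat2, Bowtie2, Cufflinks and the builds GRCm38 and mm10. No library value was analysed here, so sequencing depth is unknown and bears on no result. The values used are the gene, transcript and exon positions of the deposited annotation, which the authors gave in GTF format (GRCm38, Ensembl identifiers). Which release it was taken from is not stated.

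A host was any same-strand gene outside the small RNA biotypes. With several hosts (12 members), protein-coding ones came first, then the shortest holding intron. Sequences came from GENCODE M21 transcripts of the same build, matched by identifier and length (1507 members). Boxes were searched on the gene's own strand as TGATGA in the first 20 bases, CTGA in the last 20, ANANNA anywhere and ACA in the last 6. Families were joined by single linkage from blastn 2.17.0 (word size 7, e-value 1e-05, same strand) at 80% identity over 80% of both lengths. Newer symbols came from the gene-name table, and RefSeq ends (GRCm38.p6) served one alternative. Tables and plots were made with Python 3.11.15, numpy 2.4.6, scipy 1.17.1 and matplotlib 3.10.9.

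Named in the text are the 10 hosts with the most members, the 3 hosts with the most in each of the 9 function lists, the 3 members nearest to and farthest from the 3′ splice site in each class, introns outside imprinted clusters with 2 or more differently named members, Snord118, Snord13 and the U3 genes. A few items that this rule names are not reported here. Other names, the sequences shown, the families and the comparison with other small RNA classes were chosen after their values were seen. The members and lists were chosen with earlier results of these data known. Placement was tested on simulated data: 400 of 400 classes and 158 of 158 distances were recovered. The simulated host genes lay apart and each had a single transcript with introns. The choice among nested introns or several hosts was therefore not tried.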

Additional observations from a re-analysis of the deposited data

How the results depend on the processing

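The annotation has no replicates and no error of measurement, so only the choice of transcripts, members and annotation could move the results. The intronic share of 33.1% was 22.1% with introns of protein-coding transcripts only and 94.3% among members named Snord, Snora or Scarna. It lay between 32.8% and 35.4% under the other 5 alternatives. The share touching an exon, 8.2%, was 3.97% without retained-intron transcripts. The share of introns with exactly 1 member, 96.3%, was 99.1% among the named members and 94.1% with the longest holding intron in place of the shortest. The median distance of Snord genes to the 3′ splice site, 87 bases, was 111 with the longest holding intron and between 84 and 93.5 under the other alternatives. The Snora median, 165 bases, ran from 147.5 to 184. The median length of introns with a Snord or Snora gene, 447 bases, was 586 with the longest holding intron. This last alternative, merging overlapping members, counting names in capitals with their class and using RefSeq ends were chosen after seeing the data. No paired analysis was possible because the results describe an annotation and come from no test between samples. The provisional names of most members limit any statement about which class they belong to.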

Other observations

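A later annotation of the same build, GENCODE M21, has 1507 snoRNA genes, all of them in the deposited annotation by identifier. Of these, 492 were intronic in both, 491 at the same distance to the 3′ splice site. In M21 alone 42 were intronic, 8 of them in Snhg1, a noncoding snoRNA host gene, and 8 in Taf1d, the gene of a subunit of the RNA polymerase I factor SL1. Snord22, with no host in the deposited file, is placed in Snhg1 there. Only 1 member was intronic in the deposited file alone. M21 names 98 of the genes Snord and 42 Snora, against 82 and 39.

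The ends of the named genes depend on the annotation. Of 76 Snord genes matched in the RefSeq table, 8 (10.5%) had the same ends, and the deposited gene began a median of 9 bases further 5′ and ended 1 base further 3′. For 39 Snora genes 7 (17.9%) had the same ends, with medians of 11 and 0 bases. Among 915 others, 861 (94.1%) had the same ends.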
